A study of Saccharomyces cerevisiae with 3 samples.

Results

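The glyoxylate cycle and the enzymes around it were followed here through 9 yeast genes, namely ICL1, ICL2, MLS1, MDH1, MDH2, MDH3, PCK1, SFC1 and IDP2. The genes were chosen by name, as all probes whose platform gene symbol was one of these, and they had 16 of the 10807 probes and made up 9 of the 5598 named genes. MDH3 and PCK1 had 1 probe each and the other genes 2. A value was present for all 16 probes on all 3 arrays, so no gene dropped out.

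A Saccharomyces cerevisiae gcr1 null mutant and its wild type were grown in YEP with 3% pyruvate, a non-fermentable carbon source, to early or mid log phase, and glucose was then added to both. RNA of the strains was hybridised together on two-colour Agilent arrays, 1 for cells taken immediately ahead of the addition (0 min), 1 for 20 min and 1 for 60 min afterwards. The sources used here do not give the strain background, the extent of the gcr1 lesion or the number of cultures. GCR1 encodes an activator of glycolytic gene transcription.

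Yeast growing on acetate, ethanol or pyruvate must make sugars from small molecules. The glyoxylate cycle skips the steps of the citric acid cycle that release carbon dioxide, so that acetyl-CoA can be turned into C4 acids. Malate dehydrogenases oxidise malate to oxaloacetate, and phosphoenolpyruvate carboxykinase takes oxaloacetate into gluconeogenesis. In wild-type yeast these genes are known for repression by glucose, and several of the enzymes, among them Icl1, Mdh2 and Pck1, are also known to be degraded when glucose returns. The arrays measured RNA and not protein.

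Every value below is a log2 ratio of the 2 strains on 1 array, where 1 stands for 2-fold, or a difference of such ratios between arrays. A ratio does not say which strain changed, nor how abundant a transcript was. The labels do not state which strain is the numerator. Mutant over wild type is likely, because the titles of the arrays and the design text put the mutant first. GCR1, the gene disrupted in the mutant, had ratios of 0.97, 0.91 and 1.51 at 0, 20 and 60 min, which goes against that direction where the 2 GCR1 probes fall inside the deletion. The sources used here do not place these probes, and outside the deletion they would check nothing. Glycolytic genes known as targets of GCR1 were far on the other side at 0 min, with GPM1 (phosphoglycerate mutase) at -5.55, ENO2 (an enolase) at -4.73 and CDC19 (pyruvate kinase) at -3.43, which is the side that lower RNA in the mutant would take if the mutant is the numerator. If the GCR1 probes fall inside the deletion, they and these targets point opposite ways. Ratios are therefore called positive or negative. The positive side is that of GCR1, and the negative side is that of GPM1, ENO2 and CDC19 at 0 min.

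There was 1 array per time point, so there was no test between strains or times, no p-value and no replicate spread. What could be measured was how far 2 probes for the same gene disagreed on an array. Over 3571, 3563 and 3572 genes, 95% of such probe pairs differed by less than 0.41, 0.48 and 0.38 at 0, 20 and 60 min. These limits leave out variation between cultures, RNA preparations and arrays. A difference called larger than the probe error below exceeded only that limit. All 3 arrays had the same dye labels, and a dye bias of a probe could not be told apart from a strain difference on 1 array.

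Before glucose, 8 of the 9 genes were within 2-fold between the strains. ICL2 was the exception, on the positive side, and 1.09% of all genes were at least 2-fold positive on that array. The median of the 9 genes was -0.01, beside 0.07 over all genes. At 20 min 8 of 9 passed 2-fold on the positive side, beside 17.1% of all genes, with a median of 2.22 (4.67-fold) beside -0.08 over all genes. MDH2 alone among the 9 was not, at -0.02. At 60 min 3 of 9 still passed 2-fold on that side, beside 16.2% of all genes, with a median of 0.46 beside 0.05. None of the 9 was 2-fold negative on any array, beside 2.25%, 16.5% and 13.6% of all genes. With the arrays scaled to equal spread, the share of all genes past 2-fold at 20 min was 12.8% on the positive side and 8.18% on the negative side, and 7 of the 9 genes had a positive ratio of that size, PCK1 falling just short at 0.95. Under that scaling SFC1 was the 1 gene of 9 past 2-fold at 60 min, beside 10.6% of all genes, a share near 1 of 9. MLS1 stood at 0.97 and ICL2 at 0.88 there. At 0 min the scaling put MLS1, PCK1 and SFC1 past 2-fold on the negative side, beside 12% of all genes. It put ICL2 and MDH3 past 2-fold on the positive side, beside 8.42%.

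**Figure D1:**
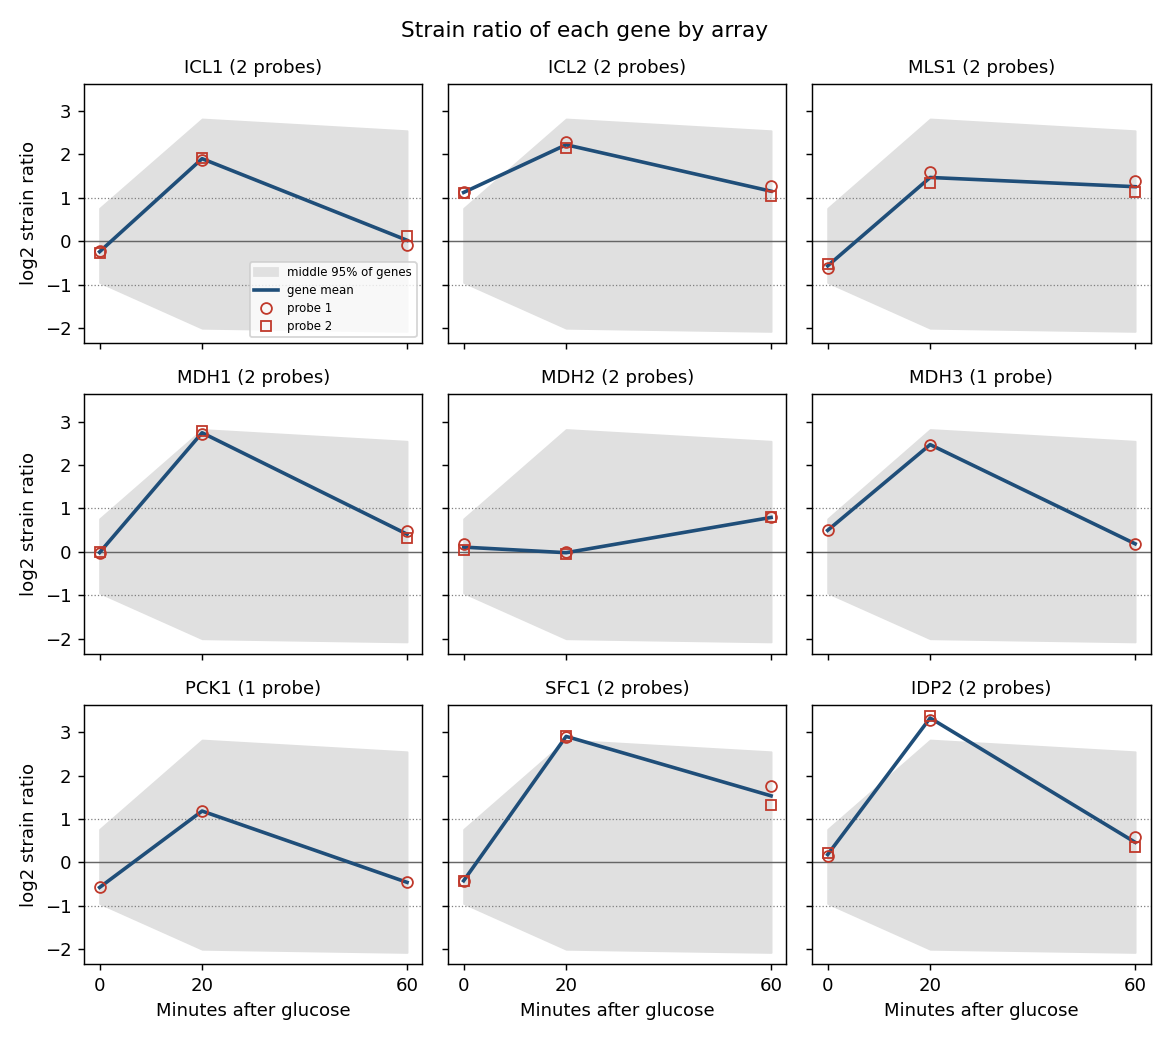
Strain ratio (log2, vertical axis) against minutes after glucose for each of the 9 genes, with each probe as a red symbol, the gene mean as a blue line, the middle 95% of all genes in grey and 2-fold as dotted lines. In 8 panels the line peaks at 20 min, between 1.18 for PCK1 and 3.32 for IDP2, whereas MDH2 lies at -0.02 there and at 0.79 at 60 min. Over all genes, 668 of 5593 (11.9%) had their highest ratio at 20 min and were at least 2-fold positive there.

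ICL1 and ICL2 differed from each other before glucose and at 60 min, and were close together at 20 min. ICL1 (YER065C) encodes isocitrate lyase, which splits isocitrate into succinate and glyoxylate and is the entry step of the cycle. Its first probe read -0.21, 1.88 and -0.08 at 0, 20 and 60 min, and the second -0.26, 1.93 and 0.13. The gene was thus positive on the 20 min array, where its mean of 1.90 was a 3.74-fold strain difference, and within 2-fold on both others. At 0 min the ratio of ICL1 was above that of 18.1% of genes, at 20 min above that of 93.4%, and at 60 min above that of 49.0%.

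ICL2 (YPR006C) encodes a mitochondrial 2-methylisocitrate lyase of propionyl-CoA breakdown and, despite its name, is not the glyoxylate cycle enzyme. Its first probe read 1.14, 2.29 and 1.28 at 0, 20 and 60 min, and the second 1.12, 2.16 and 1.04. All 6 readings were past 2-fold on the positive side. Over all genes with a value on each array, 39 of 5593 (0.697%) had means of that size on all 3, and ICL2 was the only one of the 9. The ratio of ICL2 exceeded that of ICL1 by 1.36 at 0 min and by 1.13 at 60 min, both larger than the probe error, and by 0.32 at 20 min, which was within it.

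MLS1 (YNL117W) encodes malate synthase, which joins glyoxylate to acetyl-CoA and so completes the bypass that ICL1 begins. The first MLS1 probe read -0.60, 1.595 and 1.39 at 0, 20 and 60 min, and the second -0.52, 1.35 and 1.13. The gene was on the negative side before glucose, with 5.65% of genes below it, and past 2-fold on the positive side at both later times. ICL1 and MLS1 had similar ratios at 0 and 20 min, where ICL1 minus MLS1 was 0.33 and 0.43, each within the probe error. At 60 min ICL1 minus MLS1 was -1.23, larger than the probe error of 0.38 on that array. The difference between the 60 and 20 min ratios was -1.88 for ICL1 and -0.21 for MLS1.

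The 3 malate dehydrogenase genes split by isozyme. MDH1 (YKL085W) encodes the mitochondrial enzyme of the citric acid cycle, MDH2 (YOL126C) the cytosolic enzyme that serves gluconeogenesis, and MDH3 (YDL078C) the peroxisomal enzyme that handles NADH from fatty acid oxidation. The first MDH1 probe read -0.02, 2.71 and 0.49 at 0, 20 and 60 min, and the second -0.01, 2.78 and 0.33. The single MDH3 probe read 0.50, 2.47 and 0.19. Both genes had their highest ratio at 20 min, 6.69-fold for MDH1 and 5.54-fold for MDH3, and were within 2-fold at 0 and 60 min. MDH1 minus MDH3 was 0.27 at 20 min and 0.22 at 60 min, each within the probe error. At 0 min it was -0.51, larger than the probe error of 0.41. For the difference of 20 minus 0 min it was 0.78, larger than the probe error of 0.44.

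The first MDH2 probe read 0.18, 0.01 and 0.80 at 0, 20 and 60 min, and the second 0.05, -0.04 and 0.79. MDH2 was within 2-fold on every array, as were 3011 of 5593 genes (53.8%), and its highest ratio was at 60 min, 1.73-fold. At 20 min the ratio of MDH1 exceeded that of MDH2 by 2.76 and the ratio of MDH3 exceeded it by 2.49, both larger than the probe error of 0.48. At 60 min MDH2 had the highest ratio of the 3. MDH3 minus MDH2 was -0.61, larger than the probe error of 0.38, and MDH1 minus MDH2 was -0.39, only just past it. At 0 min MDH1 minus MDH2 was -0.13, within the probe error. The sign of MDH2 at 20 min was not settled, since it was 0.06 after each array was centred on its median.

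PCK1 (YKR097W) encodes phosphoenolpyruvate carboxykinase, the step that takes oxaloacetate into gluconeogenesis. The single PCK1 probe read -0.57 at 0 min, 1.18 at 20 min and -0.46 at 60 min. PCK1 was the lowest of the 9 genes at 0 and 60 min and the lowest of the 8 past 2-fold at 20 min, where it was 2.27-fold positive. At 0 min PCK1 and MLS1 differed by 0.01, so their order there carries no information. With a single probe there was no probe error for PCK1 itself.

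SFC1 (YJR095W) encodes the mitochondrial succinate-fumarate carrier, which brings succinate made in the glyoxylate cycle into the mitochondrion. Its first probe read -0.42, 2.89 and 1.748 at 0, 20 and 60 min, and the second -0.42, 2.91 and 1.32. The 20 min mean of 2.90 was a 7.46-fold strain difference, and the 60 min mean of 1.53 was 2.89-fold and the highest of the 9 genes on that array. The probes at 60 min were 0.43 apart, more than the limit of 0.38 for that array, and both were past 2-fold. SFC1 minus ICL1 was 0.997 at 20 min and 1.51 at 60 min, both larger than the probe error, and -0.18 at 0 min, within it.

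IDP2 (YLR174W) encodes the cytosolic isocitrate dehydrogenase that yields NADPH and uses the same substrate as isocitrate lyase. The first IDP2 probe read 0.15, 3.29 and 0.58 at 0, 20 and 60 min, and the second 0.22, 3.36 and 0.35. IDP2 had the highest 20 min ratio of the 9 genes, 10.01-fold, and ranked 80th from the top among 5597 genes. At 60 min it was 1.38-fold, and 67.1% of genes had a lower ratio.

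**Figure D2:**
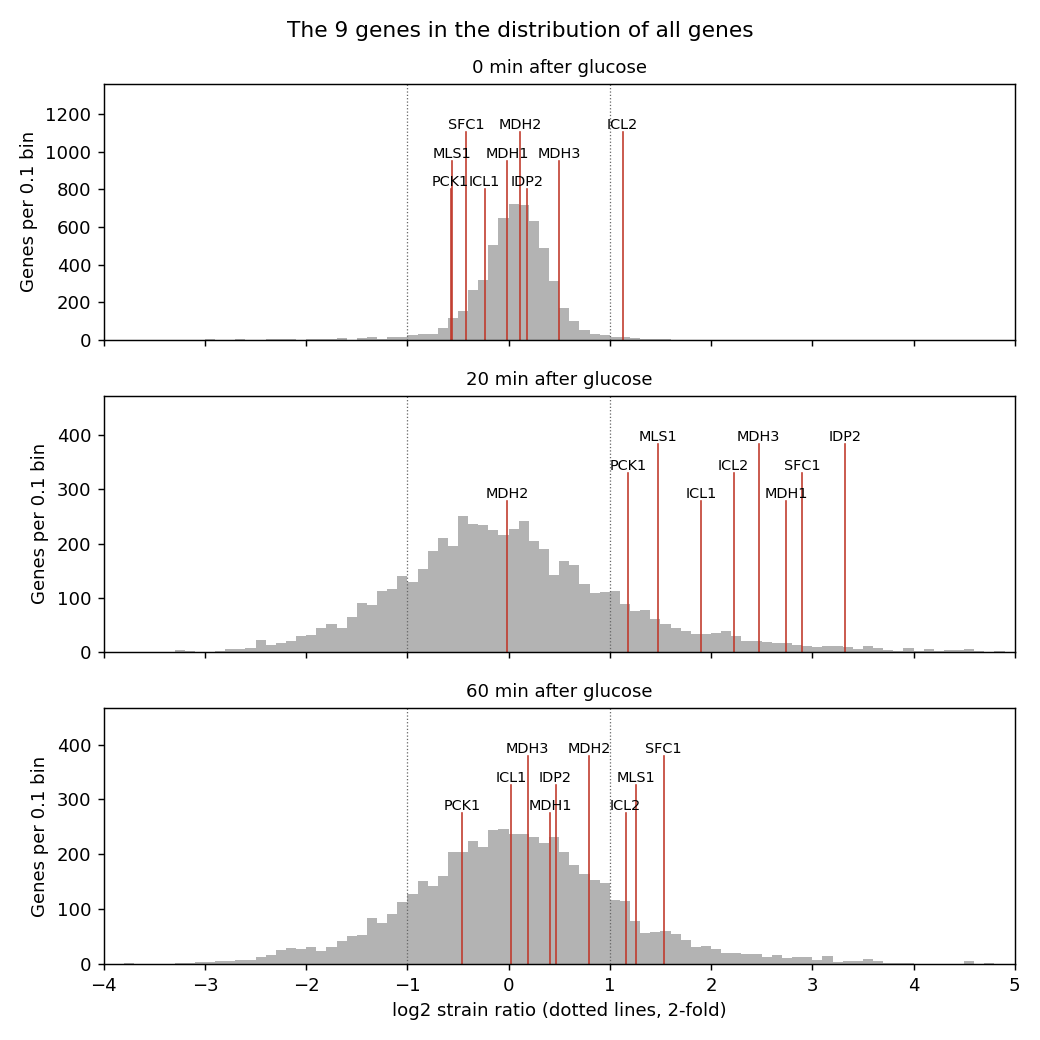
Number of genes per 0.1 bin of log2 strain ratio (horizontal axis) on each array, with the 9 genes as red lines and 2-fold as dotted lines. Outside the axis limits lie 4, 8 and 9 genes at 0, 20 and 60 min. At 20 min 8 of the lines stand on the positive flank between 1.18 and 3.32 and MDH2 stands at the centre, whereas at 0 and 60 min most lines lie within the bulk of genes.

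In descending order the ratios at 0 min were those of ICL2, MDH3, IDP2, MDH2, MDH1, ICL1, SFC1, MLS1 and PCK1. Of the 8 gaps between neighbours in that order, 1 exceeded the probe error, that between ICL2 and MDH3 (0.63). At 20 min the order was IDP2, SFC1, MDH1, MDH3, ICL2, ICL1, MLS1, PCK1 and MDH2. Again 1 of 8 gaps exceeded the probe error, that between PCK1 and MDH2 (1.20). At 60 min the order was SFC1, MLS1, ICL2, MDH2, IDP2, MDH1, MDH3, ICL1 and PCK1, and the gap between ICL1 and PCK1 (0.48) was the 1 of 8 that exceeded it. The 9 ratios spanned 1.70 at 0 min, 3.34 at 20 min and 1.99 at 60 min.

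Differences between arrays show how far each ratio moved. The 3 differences between times share arrays, so they are not independent of each other. Between 0 and 20 min the ratio moved to the positive side by at least 2-fold in 8 of 9 genes, beside 16.1% of all genes, with a median difference of 2.03 beside -0.09 over all genes. SFC1 moved by 3.32 (9.99-fold), IDP2 by 3.14, MDH1 by 2.76, ICL1 by 2.14, MLS1 by 2.03, MDH3 by 1.97 and PCK1 by 1.76. ICL2 moved by 1.10, just past 2-fold, and MDH2 by -0.13. SFC1 ranked 55th of 5595 genes by this difference and IDP2 ranked 71st.

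Scaling the arrays to equal spread, which multiplied deviations from the median by 2.42 at 0 min, 0.75 at 20 min and 0.80 at 60 min, turned the ICL2 difference to -0.82. Under that scaling the MDH3 difference was 0.88, and for 20 minus 0 min 19.4% of all genes were past 2-fold on the positive side and 12.6% on the negative side, beside 16.1% and 16.4% as deposited. After centring the arrays on their medians these shares were 19.1% and 12.7%. The differences of SFC1, IDP2, MDH1, ICL1, MLS1 and PCK1 stayed past 2-fold under both.

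Between 20 and 60 min the ratio moved to the negative side by at least 2-fold in 7 of 9 genes, beside 10.2% of all genes, with a median difference of -1.64. The median over all genes was 0.16 for this difference. Centring the arrays lowers every such difference by the same amount and left 12% of all genes at least 2-fold negative and 5.90% positive, against 8.45% positive as deposited. With equal spread these shares were 7.92% and 2.52%, and 6 of the 9 genes were at least 2-fold negative, ICL2 being at -0.84. IDP2 had a difference of -2.86, with 0.357% of genes lower, MDH1 -2.33 and MDH3 -2.28. ICL1 had -1.88, PCK1 -1.64, SFC1 -1.37 and ICL2 -1.07. MLS1 at -0.21 and MDH2 at 0.81 were within 2-fold and were set apart from the neighbour below each in the order by 0.86 and 1.02, more than the probe error of 0.53.

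From 0 to 60 min 2 of 9 genes differed by at least 2-fold on the positive side, SFC1 by 1.95 and MLS1 by 1.82, beside 15.4% of all genes, a share not far from 2 of 9, and 0 of 9 on the negative side, beside 13.3%. The other 7 genes lay between -0.31 for MDH3 and 0.68 for MDH2. With equal spread PCK1, at 0.12 as deposited, had 1.16 and so made 3 positive genes, beside 17.5% of all genes. Under that scaling ICL2 had -1.67, and 13.6% of all genes were at least 2-fold negative. The gap between MLS1 and MDH2 was 1.14, more than the probe error of 0.49. Thus ICL1, MDH1, MDH3, PCK1 and IDP2 were past 2-fold at 20 min and within 2-fold at 60 min, a pattern held by 372 of 5593 genes (6.65%), and ICL2, MLS1 and SFC1 were past 2-fold at both times, a pattern held by 575 (10.3%).

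**Figure D3:**
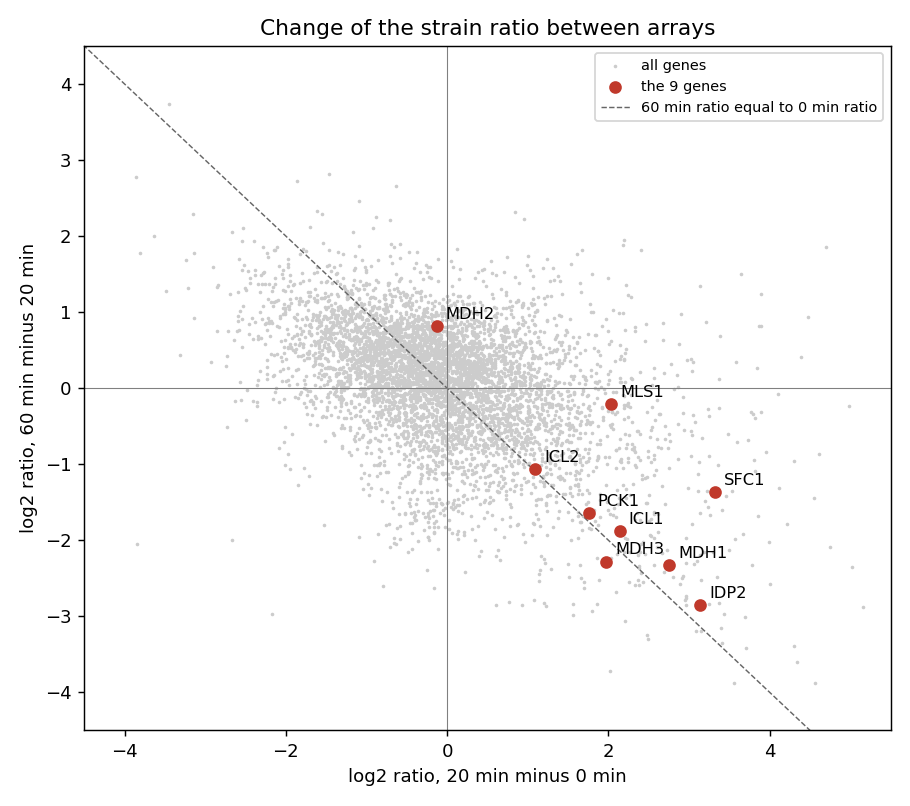
Difference of log2 strain ratios between 60 and 20 min (vertical axis) against that between 20 and 0 min (horizontal axis) for all genes in grey and the 9 genes in red, with 1 gene outside the axis limits. On the dashed line the 60 min ratio equals the 0 min ratio. The 20 min array enters both axes with opposite sign, which by itself tilts the cloud. ICL2, PCK1, ICL1, MDH3, MDH1 and IDP2 lie near the line, SFC1 and MLS1 lie above it, and MDH2 lies apart on the left.

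For each gene, the genes with the smallest Euclidean distance over the 3 log2 ratios were listed, among 5593 genes with a value on each array. Such a distance rests on 3 values. IDP2 was nearest to OM14 (distance 0.098, ratios 0.10, 3.36 and 0.51) and then to QCR6 (0.364). MDH1 was nearest to COX8 (0.183) and AIM41 (0.194), and SFC1 to COX6 (0.190) and GPD2 (0.305). ICL1 was nearest to ATP3 (0.254) and MMF1 (0.256), PCK1 to CYT1 (0.214) and ABF2 (0.236), and MDH3 to VPS13 (0.193) and GUT2 (0.307). MLS1 was nearest to GIS3 (0.178) and OTU1 (0.220), MDH2 to ISU2 (0.062) and VAC7 (0.091), and ICL2 to YGR153W (0.444) and TVS1 (0.479).

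None of these nearest genes was one of the 9. The closest approach between any of the 9 was that of MDH1 and IDP2, at 0.616, where MDH1 was 14th in the list for IDP2. IDP2 was 30th in the list for MDH1. MDH1 and MDH3 were almost as close, at 0.620, where MDH1 was 21st in the list for MDH3. ICL1 and PCK1 were 0.931 apart. The member nearest to MDH2 was MLS1 at 1.70, and MLS1 was 3639th in the list for MDH2. After scaling to equal spread the first pair of genes was unchanged for MLS1 and SFC1, shared 1 gene for ICL1, MDH1, MDH3 and IDP2, and shared 0 for ICL2, MDH2 and PCK1.

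Genes that act beside these 9 were taken from 10 lists of enzymes, carriers and regulators, in which 50 of 51 genes were measured. On the 20 min array 26 of the 50 passed 2-fold on the positive side and 6 on the negative side, beside 17.1% and 16.5% of all genes, with a median of 1.11. There were 21 and 8 such genes at 60 min, beside 16.2% and 13.6%, and 6 and 0 before glucose, beside 1.09% and 2.25%. The negative counts after glucose were near those shares. These lists were chosen with results of these data known, and their counts are descriptions.

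Enzymes listed with the citric acid and glyoxylate cycles stood on the positive side at 20 min. All 5 measured citrate synthase, aconitase and fumarase genes were at least 2-fold positive there, beside 17.1% of all genes. CIT2, the peroxisomal citrate synthase of the glyoxylate cycle, had 1.15, 5.04 and 4.72 at 0, 20 and 60 min. CIT1, its mitochondrial relative, had 0.16, 5.32 and 2.44, CIT3 had 1.24, 3.56 and 2.55, and fumarase FUM1 had -0.04, 2.52 and 0.55. At 60 min 3 of the 5, namely CIT1, CIT2 and CIT3, were at least 2-fold positive, beside 16.2% of all genes. The aconitase ACO1 was at least 2-fold negative there at -1.17, beside 13.6%.

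The other isocitrate dehydrogenases were at least 2-fold positive at 20 min in 4 of 4 genes, beside 17.1% of all genes. At 60 min 3 of 4 were, beside 16.2%. The subunits of the NAD-dependent mitochondrial enzyme, IDH1 and IDH2, had 3.42 and 3.25 at 20 min, close to the 3.32 of IDP2, and 1.30 and 0.93 at 60 min. The mitochondrial NADP-dependent enzyme IDP1 had its higher value at 60 min, at 2.80 against 1.42 at 20 min, and the peroxisomal enzyme IDP3 had 1.94 at 20 min and 1.48 at 60 min. IDP2, at 0.46, was the lowest of the 5 isocitrate dehydrogenase genes at 60 min.

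Gluconeogenic and anaplerotic genes were divided. FBP1, fructose-1,6-bisphosphatase, had -0.42 at 0 min, and 2.15 and 2.28 at 20 and 60 min, where PCK1 had 1.18 and -0.46. PYC1, a pyruvate carboxylase that makes oxaloacetate, had 0.56, 4.67 and 4.59, whereas its isozyme PYC2 had 0.04, 0.39 and -1.62. The malic enzyme MAE1 had 1.17, 0.75 and -0.21. Thus 2 of 4 were at least 2-fold positive at both times after glucose, beside 10.3% of all genes.

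Genes that supply acetyl-CoA from ethanol and acetate were at least 2-fold positive in 4 of 6 at 20 min, beside 17.1% of all genes. At 60 min 3 of 6 were, beside 16.2%. ACH1, a mitochondrial CoA transferase that acts on acetate, had 5.38 and 3.03, ALD4, mitochondrial aldehyde dehydrogenase, 4.51 and 1.69, and ADH2, the ethanol-oxidising alcohol dehydrogenase, 4.43 and 2.77 at 20 and 60 min. The cytosolic aldehyde dehydrogenase ALD6 was on the negative side, at -2.47 and -2.99. Of the acid uptake genes, the lactate and pyruvate permease JEN1 had 0.72, 1.42 and 0.13 and the acetate transporter ADY2 1.83, -0.67 and -1.09.

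Among 8 mitochondrial carriers other than SFC1, 5 were at least 2-fold positive at 20 min, beside 17.1% of all genes. At 60 min 3 were, beside 16.2%. The oxodicarboxylate carrier ODC1 had 3.53 at 20 min and 0.51 at 60 min, and its isoform ODC2 had 1.19 and 1.73. The dicarboxylate carrier DIC1 had 1.74 and 1.503. CRC1, which carries carnitine esters rather than organic acids, had 1.68 and 1.12. The aspartate aminotransferases that work with malate dehydrogenases in the malate-aspartate shuttle were opposed at 20 min, with AAT1 (mitochondrial) at -1.08 and AAT2 (cytosolic) at 1.22, and both were within 2-fold at 60 min.

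Regulators of these genes showed no common side. Of 6 activators, 2 passed 2-fold on each side at 20 min, beside 17.1% of all genes on the positive side and 16.5% on the negative side. CAT8, the zinc cluster activator of gluconeogenic and glyoxylate cycle genes, had 0.17, 2.27 and -0.41, and ADR1, an activator of ethanol and fatty acid use, had 0.26, 2.76 and 1.01. ERT1, a regulator related to gluconeogenesis, had 0.04, 0.88 and 3.19, and HAP4, the activating subunit of the Hap complex of respiratory genes, had -0.12, -1.94 and -1.99. Of 5 genes of glucose repression the repressors MIG1 and MIG2 were at least 2-fold negative at 20 min, beside 16.5% of all genes. MIG1 had 0.15, -1.89 and -0.44, and MIG2 had 0.78, -1.84 and -2.01. MIG3 had -0.77 at 20 min and -1.93 at 60 min, and HXK2, also the main hexokinase, had 1.42 and 0.94.

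The GID ubiquitin ligase marks gluconeogenic enzymes such as Mdh2 and Pck1 for degradation after glucose. With its conjugating enzyme UBC8, 1 of 8 genes was at least 2-fold positive at 20 min, near the 17.1% of all genes, and 5 of 8 at 60 min, beside 16.2%, while VID24, the substrate receptor and not among the genes chosen by size, had -1.02 at 60 min. The 4 largest were GID8 (1.30), FYV10 (1.22), RMD5 (1.15) and VID30 (1.11), all at 60 min. The fifth, UBC8, had 1.04, so that all 5 lay close to the 2-fold line.

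**Figure D4:**
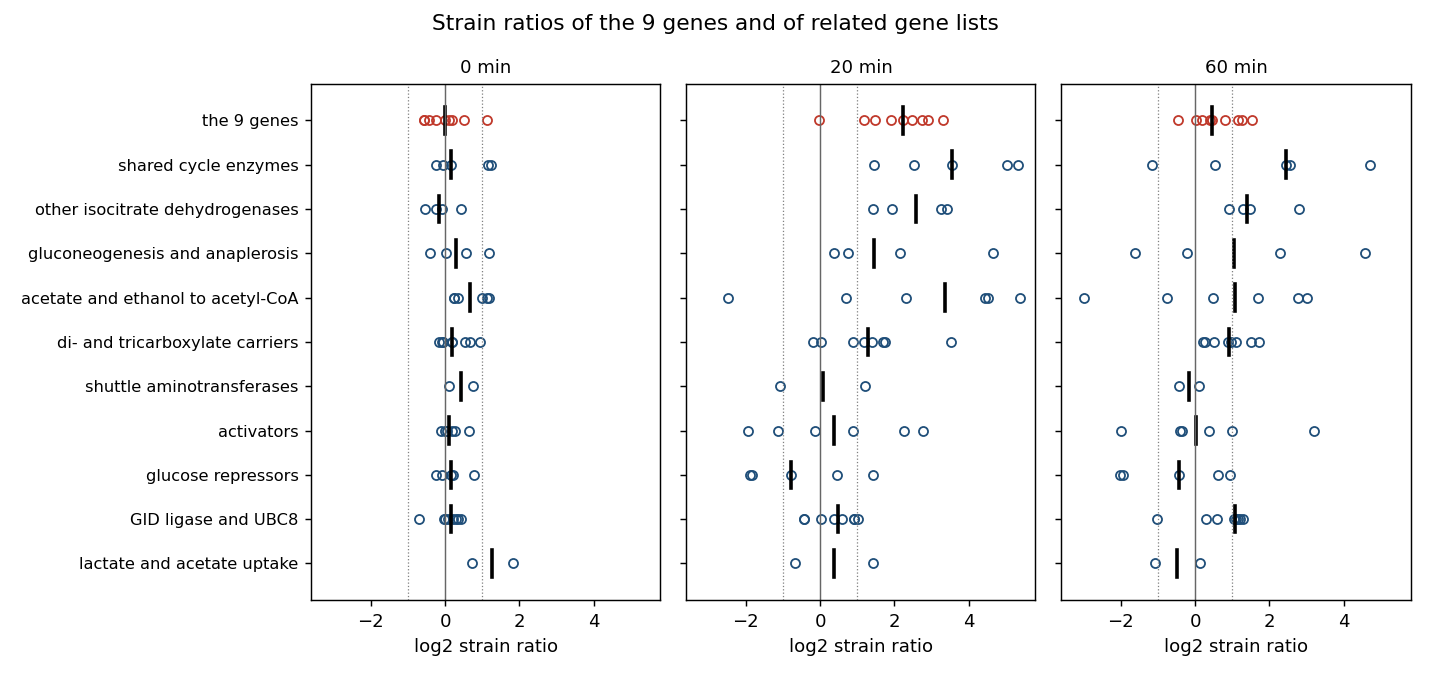
Log2 strain ratio (horizontal axis) of each gene as a circle at 0, 20 and 60 min, with the 9 genes in red on the top row, the related lists in blue below, list medians as black bars and 2-fold as dotted lines. The top row is centred on 0 at 0 min, on 2.22 at 20 min and on 0.46 at 60 min. The rows for activators and glucose repressors spread to both sides of 0 at 20 and 60 min.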

How the data were processed

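The deposited table held 1 log2 ratio of the 2 channels per probe and array, per the file headers 3 columns for 10807 probes. That the authors' values are on a log2 scale was read from tied low values, which lay at log2 ratios of small whole numbers plus a constant for each array (-0.33, -0.475 and -0.747). Cy5 was in channel 1 and Cy3 in channel 2, per the labels. The sources used here do not give the scanner software, background correction or normalisation. Array intensities were not analysed here. Column medians over all probes were 0.02, -0.15 and -0.08 at 0, 20 and 60 min. The columns were thus not centred on 0, and which strain is on top is not stated.

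Probes were named through the platform annotation (9202 with 1 symbol, 1605 with none), of which 9194 matched a RefSeq R64 gene ID. No coordinates or sequences were used. Probes of a gene were averaged (Python 3.11.15, pandas 2.3.3). Genes were counted at 2-fold. All 9 genes, GCR1, up to 4 genes of largest size per list and the 2 nearest genes per member were named, and ACO1, VID24, UBC8 and the glycolytic genes were named after their values were seen. The genes and lists were chosen with earlier results of these data known. Calculations were tested on simulated data. Alternatives were other thresholds, centring, equal spread, the median probe, the probe nearest to 0, and leaving out low-signal genes or exact zeros. A gene was of low signal where every probe was missing or within 0.001 of a log2 ratio of whole numbers up to 8 after that constant was taken off.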

Additional observations from a re-analysis of the deposited data

Results flagged for a closer look

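MLS1, PCK1 and SFC1 lay on opposite sides at different times, with every probe further from 0 than the probe error of its array. That limit measures how far 2 probes of a gene differ, and not how widely ratios spread around 0. The MLS1 ratio was -0.56 at 0 min, then 1.47 and 1.26 at 20 and 60 min. SFC1 had -0.42 at 0 min, where its probes were just beyond the limit of 0.41, 2.90 at 20 min and 1.53 at 60 min. PCK1, read by 1 probe, stood at -0.57, 1.18 and -0.46 on the same arrays, and at 60 min 29.0% of genes were below it. These differences between times were not tested, since each time had 1 array.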

How the results depend on the processing

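Centring each array, the median over probes, the probe nearest to 0, leaving out low-signal genes and leaving out exact zeros each left the counts of the 9 genes within 1.5 times and their medians within the probe spread. Equal spread, which stretches the 0 min array, put 2 genes past 2-fold on the positive side before glucose, beside 8.42% of all genes. It put 3 on the negative side there (MLS1 at -1.53, PCK1 at -1.56 and SFC1 at -1.19), beside 12%. At 60 min it left 1 positive gene, beside 10.6%. For 60 minus 0 min it gave 3 positive genes, PCK1 at 1.16 among them, beside 17.5%. It also gave 1 negative gene for that difference, ICL2 at -1.67, beside 13.6%. For 60 minus 20 min 6 genes were negative in place of 7, beside 7.92%, ICL2 being at -0.84. Equal spread took the median to -0.21 at 0 min and 1.73 at 20 min, and turned the ICL2 difference of 20 minus 0 min to -0.82. A 3-fold threshold left 0 genes positive at 0 min, beside 0.161% of all genes, and 0 at 60 min, beside 7.61%. A 1.5-fold threshold counted 1 positive gene for 60 minus 20 min, MDH2, beside 25% of all genes. The sign of ICL1 at 60 min (0.03 as deposited, -0.02 centred) was not settled. The probe nearest to 0 took SFC1 at 60 min to 1.32 and its 60 minus 0 min difference to 1.74. One IDP2 probe at 60 min matched the low-signal rule, as did 8.57% of named probes. No paired analysis was possible because each time point had 1 array. The number of arrays limits the precision, and array intensities, and so signal over background, were not analysed here.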
